A study of Mus musculus with 54 samples.

Results

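The 10 genes described here encode the MHC class I antigen presentation pathway: 7 class I heavy chains (H2-K1, H2-D1, H2-Q4, H2-Q6, H2-Q7, H2-T23 and H2-M3), the class I light chain beta-2-microglobulin (B2m), 1 subunit of the peptide transporter (Tap1) and the class I transactivator Nlrc5. They were chosen by symbol from the 39179 genes counted in every library, each symbol named 1 gene, and their levels were followed across 15 conditions of mouse macrophages.

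A class I molecule is a heavy chain held by beta-2-microglobulin with a short peptide in its groove. The peptides are cut by the proteasome in the cytosol, carried into the endoplasmic reticulum by the TAP transporter and shown at the cell surface to CD8 T cells. H2-K1 and H2-D1 encode the classical, highly polymorphic heavy chains of the mouse. H2-T23 encodes Qa-1, a ligand of NKG2 receptors of natural killer cells, H2-M3 presents peptides with an N-terminal formyl group, and H2-Q4, H2-Q6 and H2-Q7 belong to the Qa region of non-classical heavy chains. NLRC5 is recruited to an enhanceosome on the S, X and Y boxes of class I promoters, and the same promoters carry kappa B and interferon-stimulated response elements. Interferon-γ is a classical inducer of the whole pathway.

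The cells were thioglycolate-elicited peritoneal macrophages of C57BL/6 mice aged 8 to 20 weeks, with no genetic change in any group. In the polarization experiment, macrophages of 3 mice were left unstimulated (M0), stimulated for 24 h with LPS at 100 ng/ml plus IFN-γ at 50 ng/ml (M1-like) or with IL-4 at 10 ng/ml (M2-like), and each RNA was sequenced in 2 technical runs of 50-nt single-end reads. In the reprogramming experiment, 12 conditions with 3 replicates each were sequenced as paired-end 150-nt reads. These were untransfected macrophages of the M0, M1-like and M2-like kind, the same macrophages treated only with the transfection reagent (mock), and M2-like macrophages transfected with a negative control siRNA pool, with single siRNA pools against E2f1, Stat6, Pparg or Myc, or with the combined pool against all 4 transcription factors. Transfected cells were harvested 48 h after transfection, and M2-like cells were kept without IL-4 in that time. The sources used here do not clearly give the harvest time of the untransfected groups of this experiment. Nor do they say whether LPS and IFN-γ stayed on the M1-like mock cells. A mock group thus differed from its untransfected group in reagent and possibly in time and stimulus, which cannot be told apart. The labels do not say whether the 3 replicates of the reprogramming experiment came from separate animals, and its p-values measure the spread between these samples only. In bulk samples, fewer cells of a type and less RNA per cell cannot be told apart.

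The libraries held 19714994 to 29880494 counts in the polarization experiment and 13421854 to 19704195 counts in the reprogramming experiment. Levels are given as CPM, counts brought to a common library size with the trimmed mean of M-values within an experiment, and levels of different genes are compared only as CPM per kilobase of exon (RPKM). All 6 macrophage markers were found in every condition, while T cell markers summed to at most 6.39 CPM and NK cell markers to at most 0.880 CPM. The 4 B cell markers summed to 0.672 to 1.47 CPM in M1-like and 6.80 to 13.8 CPM in M2-like macrophages of the reprogramming experiment. Each single pool lowered its target, to 25.2% ± 4.05 (SD, n = 3) of the negative pool for E2f1, 27.3% ± 5.79 for Stat6, 21.9% ± 2.57 for Pparg and 38.0% ± 8.01 for Myc. In the combined pool the targets were at 60.4% ± 2.01 for E2f1, 53.9% ± 4.82 for Stat6, 28.3% ± 2.25 for Pparg and 39.6% ± 3.20 for Myc.

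In GRCm38 coordinates (GENCODE M21), 8 of the 10 genes lie on chromosome 17, in or beside the MHC. On its minus strand are H2-K1 (chr17:33996017-34000347) and H2-T23 (chr17:36029773-36032855). On its plus strand are Tap1 (chr17:34187553-34197225), H2-D1 (chr17:35262730-35267499), H2-Q4 (chr17:35379617-35385290), H2-Q6 (chr17:35424850-35430055), H2-Q7 (chr17:35439155-35443773) and H2-M3 (chr17:37270220-37274484). B2m is on the plus strand of chromosome 2 (chr2:122147686-122153083), and Nlrc5 on the plus strand of chromosome 8 (chr8:94434356-94527272).

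Promoter windows of 250 bases before to 50 bases after the RefSeq start (GRCm38.p6) were at hand for 9 of the 10 genes. Of these, 5 are shown. H2-Q6 and H2-Q7 had the widest range of levels over the reprogramming experiment and H2-D1 the narrowest. H2-K1 is the other classical heavy chain, and H2-T23 had no match to either motif as searched. Capitals mark the kappa B motif (GGG, any 2 bases, then TTCCC) and the interferon-stimulated response element (ISRE) core GAANNGAAA, both searched on both strands. On the strand printed, 5′ to 3′ along the gene, the ISRE core reads in its reverse complement.
H2-K1, chr17:34000284-34000583, minus strand: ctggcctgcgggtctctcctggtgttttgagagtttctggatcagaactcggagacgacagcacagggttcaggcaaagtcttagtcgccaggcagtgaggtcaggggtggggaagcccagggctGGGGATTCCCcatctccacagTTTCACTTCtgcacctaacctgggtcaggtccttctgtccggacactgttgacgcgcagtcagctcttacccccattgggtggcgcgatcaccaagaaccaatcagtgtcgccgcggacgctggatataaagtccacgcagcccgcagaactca
H2-D1, chr17:35262844-35263143, plus strand: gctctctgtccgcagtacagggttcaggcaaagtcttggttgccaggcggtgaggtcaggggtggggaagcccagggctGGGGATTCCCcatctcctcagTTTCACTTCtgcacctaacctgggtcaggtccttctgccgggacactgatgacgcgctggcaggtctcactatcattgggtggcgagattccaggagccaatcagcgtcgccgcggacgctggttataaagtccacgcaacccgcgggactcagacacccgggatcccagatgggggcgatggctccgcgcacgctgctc
H2-Q6, chr17:35424600-35424899, plus strand: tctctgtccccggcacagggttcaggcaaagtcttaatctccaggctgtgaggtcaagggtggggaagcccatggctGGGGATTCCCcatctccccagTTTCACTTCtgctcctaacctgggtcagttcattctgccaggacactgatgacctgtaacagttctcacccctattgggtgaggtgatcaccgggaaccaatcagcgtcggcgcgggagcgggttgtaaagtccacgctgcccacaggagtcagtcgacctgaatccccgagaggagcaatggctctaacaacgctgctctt
H2-Q7, chr17:35438905-35439204, plus strand: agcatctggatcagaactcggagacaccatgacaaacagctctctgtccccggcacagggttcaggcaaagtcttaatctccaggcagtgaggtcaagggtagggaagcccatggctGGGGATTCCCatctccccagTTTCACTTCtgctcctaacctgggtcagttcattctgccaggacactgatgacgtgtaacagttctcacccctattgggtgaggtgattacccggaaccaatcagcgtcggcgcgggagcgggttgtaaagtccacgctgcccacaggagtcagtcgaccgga
H2-T23, chr17:36032652-36032951, minus strand: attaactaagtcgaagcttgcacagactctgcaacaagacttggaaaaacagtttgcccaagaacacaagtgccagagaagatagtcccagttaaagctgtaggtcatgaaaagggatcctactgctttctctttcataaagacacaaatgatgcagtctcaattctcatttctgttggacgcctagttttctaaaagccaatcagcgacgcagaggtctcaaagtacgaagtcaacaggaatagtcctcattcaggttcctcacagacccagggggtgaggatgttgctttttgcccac

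The kappa B motif was found in the windows of 5 of the 9 genes (H2-K1, H2-D1, H2-Q4, H2-Q6 and H2-Q7) and in 1.75% of 32851 RefSeq mouse promoter windows of the same length. The ISRE core was found in 6 of the 9, the same 5 and H2-M3, and in 7.52% of all windows. The heavy chain genes are paralogs with similar windows, so their matches are not independent of each other. Only the letters GAANNGAAA were searched, so gaaactgaaa in the B2m window, whose spacing is wider, was not counted. A window without a match can thus still hold a related element. In each of the 5 genes with both, the kappa B match lay upstream of the ISRE match. It began at position -125 in H2-K1, -171 in H2-D1, -173 in H2-Q4 and H2-Q6, and -133 in H2-Q7, counted from the start site. H2-K1 has another RefSeq start, from which the match began at -111. The letters TGACG of the X2 box, part of the site on which the NLRC5 complex assembles, were in 7 of the 9 windows and in 20.8% of all windows, and H2-Q6 and H2-T23 were without them. CCAAT, the Y box, was in 9 of 9 and in 37.4% of all windows. The MYC E-box CACGTG was in 0 of the 9 (7.15% of all windows). A match describes letters and not a bound site. H2-D1 carried the same matches as H2-Q7 and its level moved far less between conditions. The part of these motifs in the levels was not tested.

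**Figure D1:**
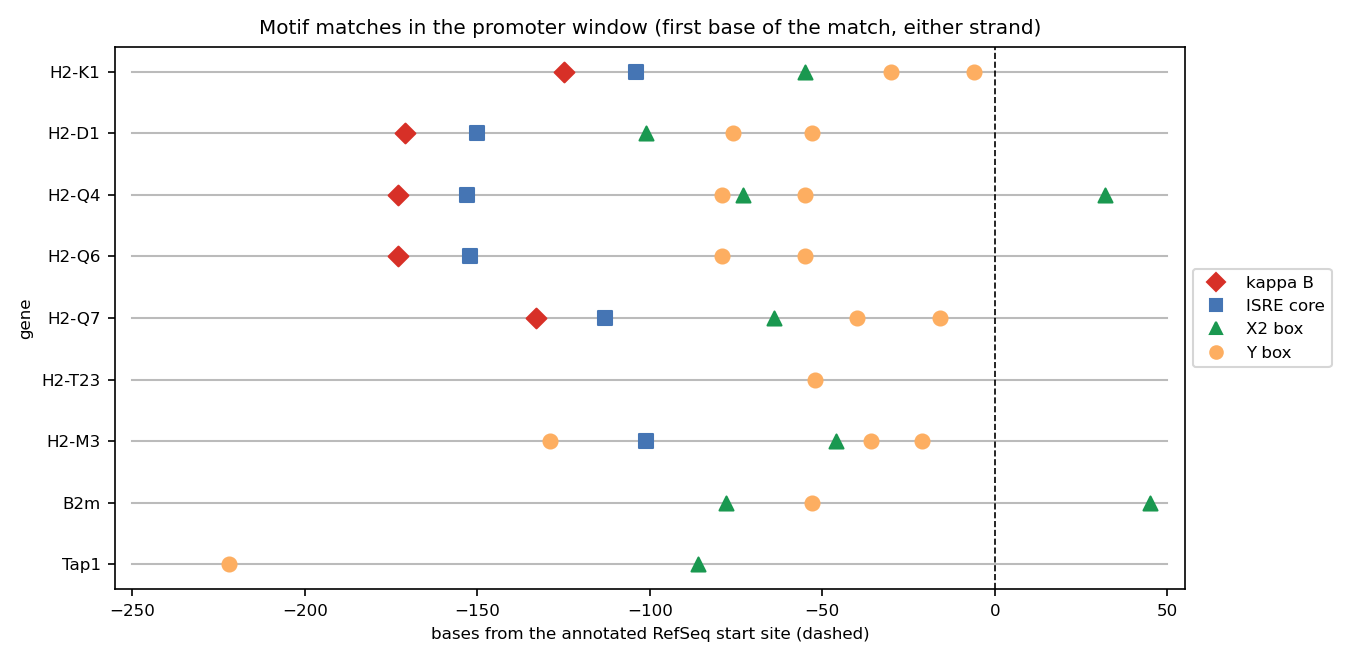
First base of each motif match (symbols, either strand) in the promoter windows of 9 genes, in bases from the annotated RefSeq start. For H2-K1 only the window printed in the text is drawn. The kappa B and ISRE matches sit as a pair in H2-K1, H2-D1, H2-Q4, H2-Q6 and H2-Q7. Of the motifs searched, H2-T23 matched a Y box only.

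The heavy chain genes are paralogs, and part of their sequence is shared. Of all 50-base windows of H2-Q4 transcripts in GENCODE M21, 63.6% occurred in no transcript of another gene, against 65.0% for H2-Q6, 73.5% for H2-Q7, 85.5% for H2-T23, 87.2% for H2-D1 and 90.4% for H2-K1. With windows of 150 bases the lowest value was 90.1%, for H2-Q4. H2-Q6 shared 13.9% of its 50-base windows and 5.99% of its 150-base windows with H2-Q7. H2-M3, B2m, Tap1 and Nlrc5 were nearly free of shared windows, with at least 96.7% of the 50-base windows unique in each. How the deposited counts treated reads that match several genes is not given in the sources used here, so the split of reads among H2-Q4, H2-Q6, H2-Q7 and their relatives is uncertain. In unstimulated macrophages H2-Q6 was at 65.9, 61.3 and 65.3 CPM in the 50-nt libraries and at 6.22, 3.47 and 1.57 CPM in the 150-nt libraries. The tables of both experiments were normalised separately and the experiments differ in more than read length, and the part of shared reads in this gap was not tested.

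Unstimulated macrophages already transcribed every gene of the set. In the polarization experiment the M0 level per length was highest for B2m, at 2766 RPKM, followed by H2-D1 at 1166 and H2-K1 at 316 RPKM. Nlrc5 was lowest at 3.13 RPKM, below Tap1 at 7.69 RPKM. In M2-like macrophages of the reprogramming experiment the extremes were B2m at 2331 RPKM and H2-Q7 at 0.412 RPKM.

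LPS and IFN-γ raised all 10 genes. The question here was how M1-like and M2-like macrophages differ from M0 and from each other. The transactivator Nlrc5 was at 25.4, 27.9 and 26.4 CPM in the 3 M0 samples, at 719, 693 and 778 CPM in the M1-like samples and at 20.7, 23.9 and 22.8 CPM in the M2-like samples of the polarization experiment. Tap1, which carries peptides to the heavy chains, was at 42.5, 41.0 and 42.9 CPM unstimulated, 1161, 1083 and 1164 CPM after LPS and IFN-γ and 32.6, 38.0 and 41.5 CPM after IL-4. In both genes the M1-like samples stood far above the other 2 groups without overlap. On the log2 scale the M1-like level exceeded the M2-like level by 5.02 (SE 0.08, adjusted p = 3.00e-13) for Nlrc5 and 4.93 (SE 0.09, adjusted p = 8.26e-13) for Tap1 by edgeR's quasi-likelihood test with Benjamini-Hochberg adjustment.

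The non-classical Qa heavy chains rose by nearly as much. H2-Q6 was at 1636, 1629 and 1853 CPM after LPS and IFN-γ and 61.2, 60.9 and 68.1 CPM after IL-4, a log2 fold change of 4.75 (SE 0.08). H2-Q7 was at 1146, 1202 and 1371 against 65.6, 75.2 and 83.0 CPM, and H2-Q4 at 1054, 1015 and 1162 against 63.6, 73.3 and 79.3 CPM. Their log2 fold changes were 4.05 (SE 0.10) and 3.90 (SE 0.10). The 3 genes with the highest resting levels per length differed by less than these, as did H2-M3 and H2-T23. H2-K1 was at 5865, 5891 and 6699.9 CPM after LPS and IFN-γ and 872, 960.2 and 1079.6 CPM after IL-4, with a log2 fold change of 2.66 (SE 0.09). H2-D1, at 7032, 7319 and 8003 against 2226, 2683 and 2940.0 CPM, had the smallest, 1.51 (SE 0.09). B2m was at 10341, 10121 and 10946 CPM after LPS and IFN-γ against 2787, 2720.3 and 2693 CPM after IL-4, a difference of 1.94 (SE 0.06). In the same comparison H2-M3 was higher by 2.47 (SE 0.06) and H2-T23 by 2.35 (SE 0.08).

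Of the 10 genes, 10 were called higher in M1-like against M2-like macrophages, as were 34.6% of all 16110 genes tested. Against M0 the counts were the same, 10 of 10 beside 35.4% of all genes. The median log2 fold change of the 10 genes over M0 was 3.27, and that of all genes tested was -0.04. Leaving out any single mouse's sample left all 10 called in both comparisons. The eosinophil markers summed to 0.270 to 0.817 CPM in M1-like and 14.1 to 19.1 CPM in M2-like samples, and their part in the result was not tested. Only 1 of the 3 markers had a mean of at least 1 CPM in M2-like samples, and Prg2 was at 0 in both groups.

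IL-4 alone moved the set little. B2m was higher in M2-like than in M0 macrophages by 0.20 (SE 0.05, adjusted p = 0.0171) on the log2 scale and Nlrc5 lower, with -0.24 (SE 0.07, adjusted p = 0.0296), by edgeR's quasi-likelihood test with Benjamini-Hochberg adjustment, while the other 8 genes lay between -0.17 and 0.10 and did not pass. Of all genes 13.5% were higher and 14.4% lower. Neither call was robust: 0 of 10 genes were called without replicate 1 or replicate 2 of M0, 1 without replicate 3 of M0 or replicate 2 of M2-like macrophages, and 5 when technical runs were entered as separate samples.

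The untransfected groups of the reprogramming experiment showed the same 10 genes higher in M1-like macrophages. Nlrc5 was at 232, 234 and 213 CPM in M1-like and 20.8, 24.2 and 21.6 CPM in M2-like samples, and Tap1 at 696, 688 and 716 and 37.8, 36.0 and 39.5 CPM. The log2 fold changes were 3.35 (SE 0.11, adjusted p = 5.22e-22) and 4.21 (SE 0.14, adjusted p = 8.02e-22) by edgeR's quasi-likelihood test with Benjamini-Hochberg adjustment. H2-Q6 and H2-Q7 were near the lower end of detection in M2-like cells, at 2.15, 1.998 and 1.06 and at 2.65, 1.03 and 1.59 CPM from 16 to 37 reads a library, and reached 280.3, 334 and 307 and 245, 179.8 and 221 CPM in M1-like cells. Their log2 fold changes of 7.47 (SE 0.26) and 6.95 (SE 0.24) rest on these small counts. H2-K1 changed by 1.91 (SE 0.11), B2m by 1.80 (SE 0.12) and H2-D1, again with the smallest change, by 1.17 (SE 0.11). Of all 14172 genes tested, 31.3% were higher in M1-like than M2-like and 29.0% higher in M1-like than M0 cells, and 10 of 10 class I genes were higher in both comparisons. Here too the summed eosinophil markers were lower in M1-like samples, at 0.610 to 1.70 against 15.5 to 18.1 CPM in M2-like samples. Only 1 of the 3 markers had a mean of at least 1 CPM in each group, and Prg2 was at 0 in both. The part of these markers in the result was not tested.

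Between M2-like and M0 cells of this experiment, 4 of 10 genes were lower and 0 higher, with 9.19% of all genes lower. These were H2-Q6 (-1.10), H2-M3 (-0.51), Tap1 (-0.48) and Nlrc5 (-0.35). H2-M3 kept its call without any 1 replicate, whereas 1 gene was left without replicate 1 of M0 and 2 without replicate 2 of M0 or replicate 3 of M2-like cells. H2-Q6, with 16 to 85 reads a library in these groups, lost its call in 4 of the 6 runs with 1 sample left out. Nlrc5 was the only gene of the set called lower in M2-like than M0 macrophages in both experiments. Its call was lost in most such runs, 5 of 6 in the polarization and 4 of 6 in the reprogramming experiment.

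**Figure D2:**
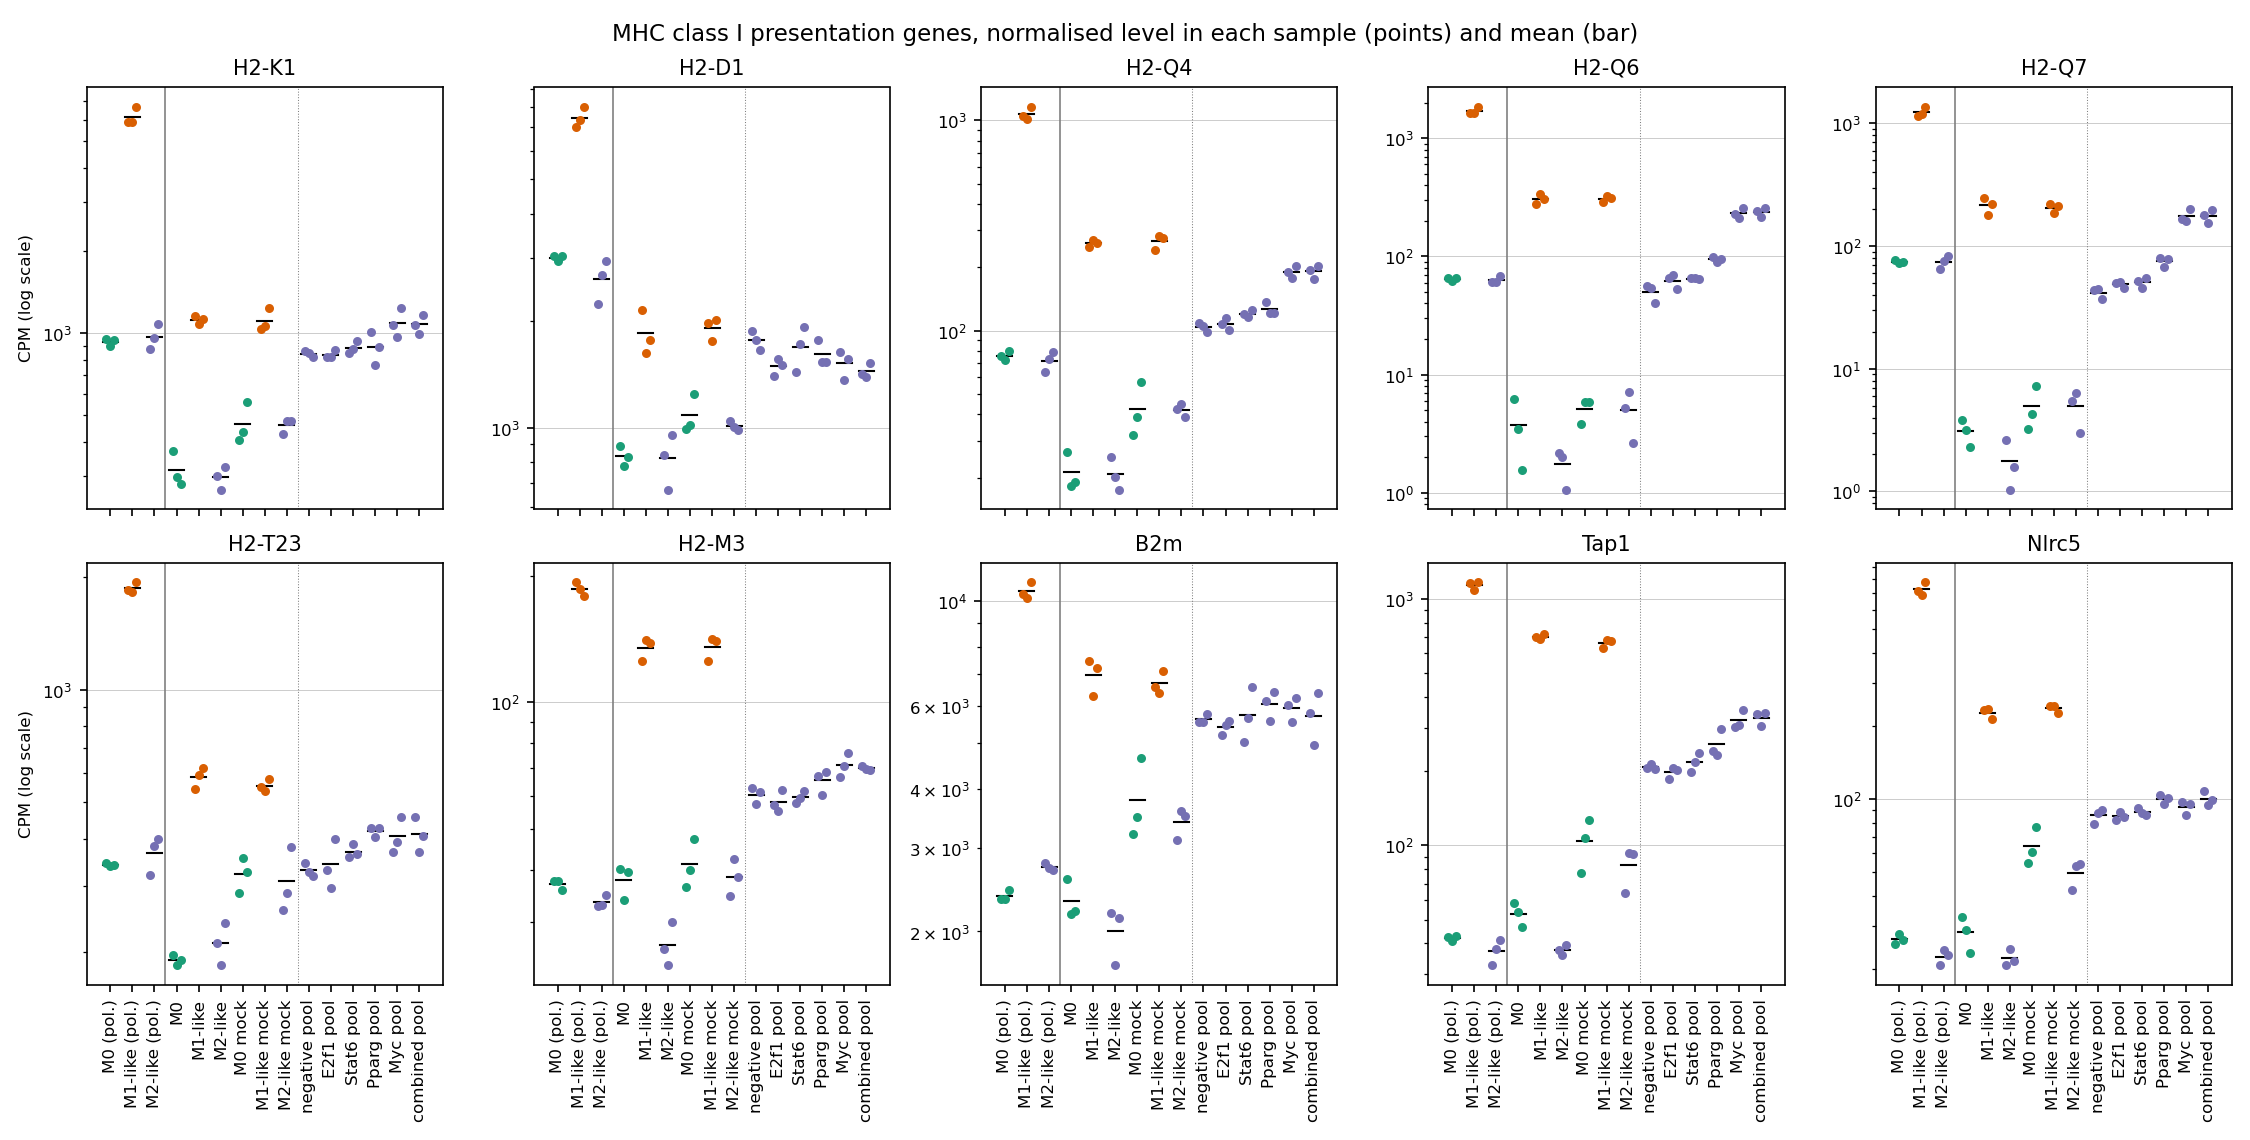
CPM of each of the 10 genes in every sample (points, log scale) with the mean (bar) in the 15 conditions, the polarization experiment left of the grey line and the pools right of the dotted line. M1-like groups (orange) have the highest means in both experiments, and the means of the M2-like groups (purple) climb from untransfected to mock to the negative pool, with Tap1, H2-Q4, H2-Q6 and H2-Q7 higher again in the Myc and combined pools.

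Mock-treated cells differed from untransfected cells in these genes in the M0 and M2-like groups and not detectably in the M1-like group. Nlrc5 was at 42.4, 53.3 and 54.0 CPM in M2-like mock against 20.8, 24.2 and 21.6 CPM in untransfected M2-like macrophages, and Tap1 at 64.3, 92.9 and 92.4 against 37.8, 36.0 and 39.5 CPM. B2m was at 3127, 3595 and 3514 against 2183, 1695 and 2135 CPM and H2-K1 at 428, 477 and 478 against 302, 268 and 325 CPM. In each of these genes every mock sample lay above every untransfected sample. The log2 fold changes were 1.16 (SE 0.11, adjusted p = 3.02e-09) for Nlrc5, 1.14 (SE 0.13, adjusted p = 2.29e-07) for Tap1, 0.77 (SE 0.12, adjusted p = 2.86e-05) for B2m and 0.63 (SE 0.11, adjusted p = 3.30e-04) for H2-K1 by edgeR's quasi-likelihood test with Benjamini-Hochberg adjustment. H2-Q4 rose by 1.01 (SE 0.14), H2-M3 by 0.54 (SE 0.10), H2-T23 by 0.55 (SE 0.11), H2-Q6 by 1.53 (SE 0.35) and H2-Q7 by 1.52 (SE 0.32). H2-D1, with 0.30 (SE 0.11, adjusted p = 0.279), did not pass.

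In all, 9 of 10 genes were higher in M2-like mock than in M2-like macrophages, a comparison in which 1.67% of all genes tested were higher. The calls of H2-Q6, H2-Q7 and H2-T23 rested on single libraries: H2-Q6 was lost without replicate 3 of M2-like (adjusted p = 0.120) or replicate 2 of M2-like mock cells (0.146), H2-Q7 without replicate 2 of either group (0.0575 and 0.0509), and H2-T23 without replicate 2 of M2-like (0.0589) or replicate 3 of M2-like mock cells (0.124).

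In M0 cells 7 of 10 genes were higher with mock treatment, beside 11.7% of all genes. Nlrc5 went from 32.8, 28.8 and 23.3 to 54.8, 60.7 and 76.9 CPM, and H2-Q4 from 26.6, 18.3 and 19.2 to 31.8, 38.7 and 57.2 CPM. Their log2 fold changes were 1.18 (SE 0.11) and 1.001 (SE 0.14), followed by Tap1 with 0.98 (SE 0.13), H2-T23 with 0.76 (SE 0.11) and B2m with 0.70 (SE 0.12). H2-K1 (0.56, SE 0.11) and H2-D1 (0.38, SE 0.11) rose least, the latter not without replicate 2 of M0 or replicate 3 of M0 mock cells. H2-Q6, H2-Q7 and H2-M3 did not pass.

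In M1-like cells 0 of 10 genes differed between mock and untransfected samples by edgeR, 0 had an unadjusted p under 0.05, and DESeq2 called 0, with 0% of all genes called. The log2 fold changes ran from -0.08 to 0.06, with SE of 0.08 to 0.17. The difference between M1-like and M2-like macrophages was smaller in mock-treated than in untransfected cells, and the interaction passed for 9 of 10 genes beside 1.09% of all genes tested. Without 1 sample 4 to 8 genes passed, and H2-Q4, B2m, Tap1 and Nlrc5 passed in each such run. Tap1 differed by 2.99 in mock and by 4.21 in untransfected cells on the log2 scale, Nlrc5 by 2.24 and 3.35, and B2m by 0.97 and 1.80. All 10 genes were still higher in M1-like mock than in M2-like mock (30.9% of all genes) and M0 mock cells (30.3%). M2-like mock and M0 mock cells differed in 1 gene, Nlrc5, which was lower in M2-like mock with -0.36 (SE 0.10, adjusted p = 0.0410) by edgeR's quasi-likelihood test with Benjamini-Hochberg adjustment beside 1.64% of all genes. This call was lost without replicate 2 or 3 of M0 mock or replicate 1 or 2 of M2-like mock cells, while 2 genes were called without replicate 1 of M0 mock cells.

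The negative control siRNA pool raised 9 of the 10 genes a further step above mock, 6.67% of all genes being higher. This comparison shares its mock samples with the one against untransfected cells. H2-Q6 was at 5.25, 7.15 and 2.65 CPM in M2-like mock and at 56.0, 53.9 and 40.4 CPM in cells with the negative pool. H2-Q7 was at 5.51, 6.38 and 2.997 and 43.5, 44.6 and 36.8 CPM, and H2-Q4 at 42.4, 44.9 and 38.7 and 109, 106 and 98.4 CPM. Tap1 was at 206, 213 and 205 CPM with the negative pool and B2m at 5558, 5538 and 5762 CPM. In each of these genes the groups did not overlap. The log2 fold changes over mock were 3.32 (SE 0.23, adjusted p = 7.42e-12) for H2-Q6, 3.06 (SE 0.21, adjusted p = 7.42e-12) for H2-Q7, 1.31 (SE 0.14, adjusted p = 3.80e-08) for H2-Q4, 1.32 (SE 0.13, adjusted p = 1.42e-08) for Tap1 and 0.72 (SE 0.12, adjusted p = 4.69e-05) for B2m by edgeR's quasi-likelihood test with Benjamini-Hochberg adjustment. H2-K1 rose by 0.86 (SE 0.11), H2-D1 by 0.80 (SE 0.11), Nlrc5 by 0.78 (SE 0.10) and H2-M3 by 0.65 (SE 0.09). The ligand of NKG2 receptors, H2-T23, was at 344, 327 and 317 CPM against 258, 287 and 381 CPM in mock and did not pass (0.09, SE 0.11, adjusted p = 0.672). All 9 calls stayed without any 1 replicate. The sum of the eosinophil markers Siglecf, Ccr3 and Prg2 was 33.5 to 38.8 CPM with the negative pool and 18.8 to 20.1 CPM in mock. Only 1 of the 3 had a mean of at least 1 CPM in each group, and Prg2 was at 0 in both. B cell markers summed to 6.41 to 17.3 and 6.55 to 11.6 CPM. The part of both kinds of marker in the result was not tested.

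Against the negative pool, which carries siRNA, the single pools fell into those that moved class I genes and those that did not detectably. These comparisons, and that of the combined pool, share the 3 negative pool samples. The Myc pool raised 7 of 10 genes (13.9% of all genes were higher), the Pparg pool 2 (2.71%), and the E2f1 and Stat6 pools 0. Per the study's methods the Myc siRNA came from Dharmacon and the E2f1, Pparg and Stat6 pools from siTools Biotech. For the Myc pool, and for the combined pool that holds it, target and supplier of the siRNA cannot be told apart. H2-Q6, at 56.0, 53.9 and 40.4 CPM with the negative pool, was at 226, 210.1 and 258 CPM with the Myc pool, 98.9, 90.5 and 95.04 CPM with the Pparg pool, 65.6, 65.1 and 63.9 CPM with the Stat6 pool and 65.6, 68.9 and 52.8 CPM with the E2f1 pool. The Myc samples were the highest and the Pparg samples the next. Every Myc, Pparg and Stat6 sample lay above every negative pool sample, while E2f1 and negative pool samples overlapped. Tap1 was at 206, 213 and 205 CPM with the negative pool, 301, 306 and 354 CPM with the Myc pool and 241, 232 and 296 CPM with the Pparg pool. H2-Q4 was at 189, 177 and 202 CPM with the Myc pool, above the 109, 106 and 98.4 CPM of the negative pool in every sample.

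With the Myc pool the log2 fold changes were 2.21 (SE 0.18, adjusted p = 7.41e-11) for H2-Q6, 2.09 (SE 0.16, adjusted p = 4.33e-11) for H2-Q7, 0.86 (SE 0.13, adjusted p = 5.91e-06) for H2-Q4 and 0.62 (SE 0.12, adjusted p = 2.56e-04) for Tap1 by edgeR's quasi-likelihood test with Benjamini-Hochberg adjustment. H2-K1 rose by 0.38 (SE 0.11), H2-T23 by 0.30 (SE 0.11) and H2-M3 by 0.23 (SE 0.09). Nlrc5, at 97.7, 86.4 and 95.2 CPM against 78.7, 88.0 and 90.5 CPM, B2m (0.08, SE 0.11) and H2-D1 (-0.21, SE 0.11) did not pass. The first 4 genes kept their calls without any 1 replicate. H2-K1 lost its call without replicate 3 of the Myc pool (adjusted p = 0.0809), and H2-T23 and H2-M3 each lost theirs without any 1 of the 6 samples other than replicate 1 of the Myc pool (adjusted p 0.0585 to 0.235 and 0.0607 to 0.193). Without replicate 3 of the Myc pool 4 genes were called.

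The Pparg pool raised H2-Q6 by 0.92 (SE 0.18, adjusted p = 9.36e-04) and H2-Q7 by 0.86 (SE 0.16, adjusted p = 7.05e-04) on the log2 scale (edgeR's quasi-likelihood test with Benjamini-Hochberg adjustment), and both held without any 1 replicate. DESeq2 called 3 genes in this comparison, a fit without the filter on low counts 4, and a fit of the compared groups alone 5. For the E2f1 and Stat6 pools edgeR called 0 of 10 genes (0.910% and 1.51% of all genes were called), 1 gene had an unadjusted p under 0.05 in each, and DESeq2 called 0, while 1 gene passed for Stat6 without the filter. Their log2 fold changes ran from -0.24 to 0.32 with E2f1 and from -0.06 to 0.37 with Stat6, with SE up to 0.18. The choice of control decided these counts: against M2-like mock cells instead, 9 genes were higher for E2f1 (beside 6.31% of all genes), 9 for Stat6 (6.13%), 10 for Pparg (9.59%), 10 for Myc (19.8%) and 10 for the combined pool (19.0%), with the step from mock to negative pool included.

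The combined pool gave values close to those of the Myc pool. H2-Q6 was at 243, 216 and 255 CPM with the combined pool and at 226, 210.1 and 258 CPM with the Myc pool, H2-Q7 at 178, 153 and 197 and 167, 161 and 202 CPM, and Tap1 at 341, 305 and 343 and 301, 306 and 354 CPM. In all 3 genes the samples of both pools overlapped. Against the negative pool the combined pool raised 6 of 10 genes (12.5% of all genes were higher). These were H2-Q6 by 2.25 (SE 0.18, adjusted p = 5.38e-11), H2-Q7 by 2.08 (SE 0.16, adjusted p = 4.36e-11), H2-Q4 by 0.88 (SE 0.13, adjusted p = 5.03e-06), Tap1 by 0.66 (SE 0.12, adjusted p = 1.32e-04), H2-K1 by 0.36 (SE 0.11, adjusted p = 0.0138) and H2-T23 by 0.32 (SE 0.11, adjusted p = 0.0357) on the log2 scale (edgeR's quasi-likelihood test with Benjamini-Hochberg adjustment). H2-M3 (0.21, SE 0.09), Nlrc5 (0.23, SE 0.10) and B2m (0.02, SE 0.11) did not pass. H2-D1 pointed the other way, at 1416, 1387 and 1520.0 CPM with the combined and 1876, 1761 and 1649 CPM with the negative pool, with every combined sample the lower, and missed the threshold (-0.29, SE 0.11, adjusted p = 0.0547). H2-K1 lost its call without replicate 3 of the negative pool (0.0541) or of the combined pool (0.0749), and H2-T23 without any 1 of the 6 samples other than replicate 2 of the combined pool (0.0527 to 0.189). B cell markers summed to 13.0 to 24.7 CPM with the combined pool and 9.87 to 26.9 CPM with the Myc pool, beside 6.41 to 17.3 CPM with the negative pool, and mesothelial markers to 2.48 to 4.74, 2.02 to 2.92 and 7.40 to 12.01 CPM. Their part in the result was not tested.

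The difference between the combined and the Myc pool passed for 0 of 10 genes by edgeR, with 0 at an unadjusted p under 0.05 and 0 by DESeq2, and for 0.0494% of all genes. The log2 differences ran from -0.08 to 0.11 with SE of 0.09 to 0.17. Against the other single pools the combined pool was higher in 6 genes for E2f1 (10.3% of all genes), 4 for Stat6 (10.4%) and 4 for Pparg (7.68%). H2-Q4, H2-Q6, H2-Q7 and Tap1 were among them each time. The log2 difference of H2-Q6 was 1.93 (SE 0.18) over the E2f1 pool, 1.87 (SE 0.17) over the Stat6 pool and 1.33 (SE 0.17) over the Pparg pool, and that of Tap1 was 0.74 (SE 0.12), 0.60 (SE 0.12) and 0.36 (SE 0.12). Tap1 against the Pparg pool lost its call without replicate 1 or 2 of the Pparg or replicate 1 or 3 of the combined pool. H2-K1 (0.37) and H2-M3 (0.26) passed against the E2f1 pool as well, H2-K1 not without replicate 3 of the combined pool and H2-M3 only in the full set or without replicate 3 of the E2f1 pool.

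**Figure D3:**
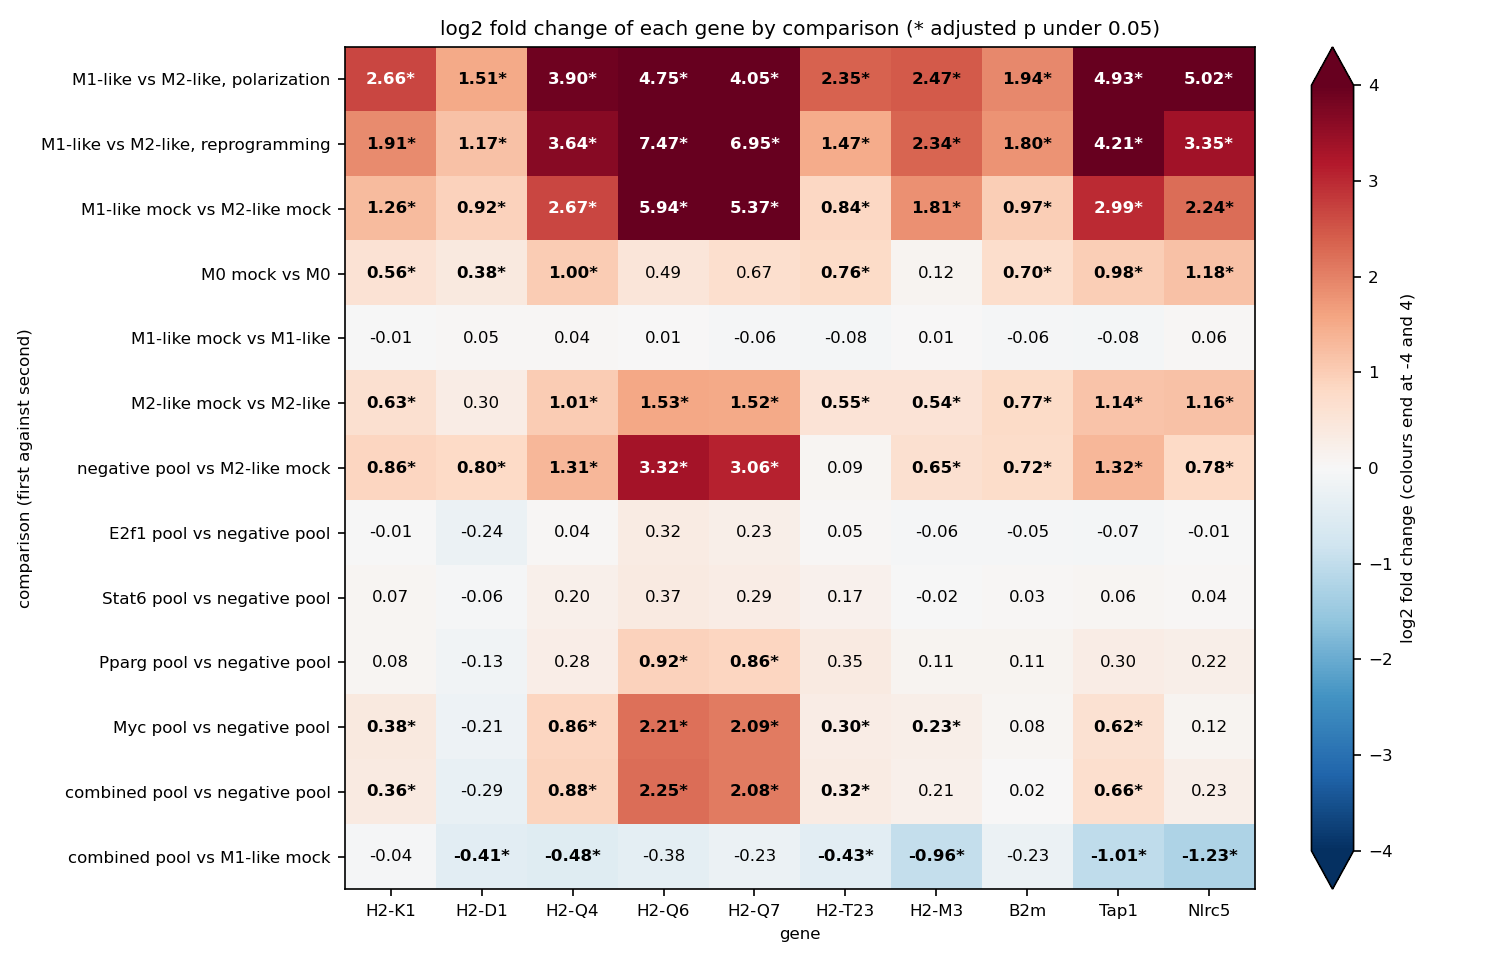
log2 fold change of each gene (columns) in 13 comparisons (rows, first group against second), with an asterisk at an adjusted p under 0.05. The mock row of M1-like cells is near 0 throughout, the Myc and combined pools look alike, and H2-D1 has no asterisk against the negative pool.

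Reprogrammed M2-like cells were then set against M1-like mock cells, the polarized state with the transfection reagent but without siRNA. The experiment has no M1-like group with a negative pool. In these percentages knockdown and the presence of siRNA therefore cannot be told apart. The combined pool brought H2-K1 to 97.2% ± 7.59 (SD, n = 3) of the M1-like mock mean, H2-Q7 to 85.4% ± 10.7 and B2m to 85.3% ± 10.7. H2-Q6 was at 77.0% ± 6.55, H2-D1 at 75.3% ± 3.66, H2-T23 at 74.2% ± 7.83 and H2-Q4 at 71.9% ± 5.27. The remaining 3 genes were near the middle of the scale, H2-M3 at 51.5% ± 0.527, Tap1 at 49.7% ± 3.22 and Nlrc5 at 42.5% ± 2.81. Nlrc5 was at 107, 94.3 and 99.6 CPM with the combined pool and at 240.4, 241 and 227 CPM in M1-like mock cells, and Tap1 at 341, 305 and 343 and 630.4, 681 and 676 CPM. For both the groups were far apart. The log2 difference was -1.23 (SE 0.10, adjusted p = 4.81e-12) for Nlrc5, -1.01 (SE 0.12, adjusted p = 3.75e-08) for Tap1 and -0.96 (SE 0.09, adjusted p = 6.60e-11) for H2-M3 by edgeR's quasi-likelihood test with Benjamini-Hochberg adjustment. H2-Q4 (-0.48, SE 0.13), H2-T23 (-0.43, SE 0.11) and H2-D1 (-0.41, SE 0.11) were lower as well. Thus 6 of 10 genes were lower beside 25.6% of all genes, and 6 stayed so without any 1 replicate. H2-K1 (-0.04, SE 0.11), B2m (-0.23, SE 0.12), H2-Q7 (-0.23, SE 0.15) and H2-Q6 (-0.38, SE 0.17, adjusted p = 0.0548) did not pass. B cell markers summed to 0.979 to 2.36 CPM in M1-like mock cells, below every combined pool sample, and their part in the result was not tested.

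How much of this level was already there with the negative pool differed from gene to gene. With the negative pool H2-D1 stood at 92.1% ± 5.92 of the M1-like mock mean, B2m at 83.9% ± 1.85 and H2-K1 at 75.7% ± 1.91. H2-Q6 stood at 16.2% ± 2.74, H2-Q7 at 20.2% ± 2.03 and Tap1 at 31.4% ± 0.670, so the step from the negative to the combined pool was widest for the Qa genes. Untransfected M2-like cells had H2-Q6 at 0.561% ± 0.191 and H2-Q7 at 0.851% ± 0.398, and mock M2-like cells 1.62% ± 0.732 and 2.41% ± 0.852. Nlrc5 moved from 9.41% ± 0.756 untransfected to 21.1% ± 2.73 in mock, 36.3% ± 2.65 with the negative pool and 39.4% ± 2.51 with the Myc pool.

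**Figure D4:**
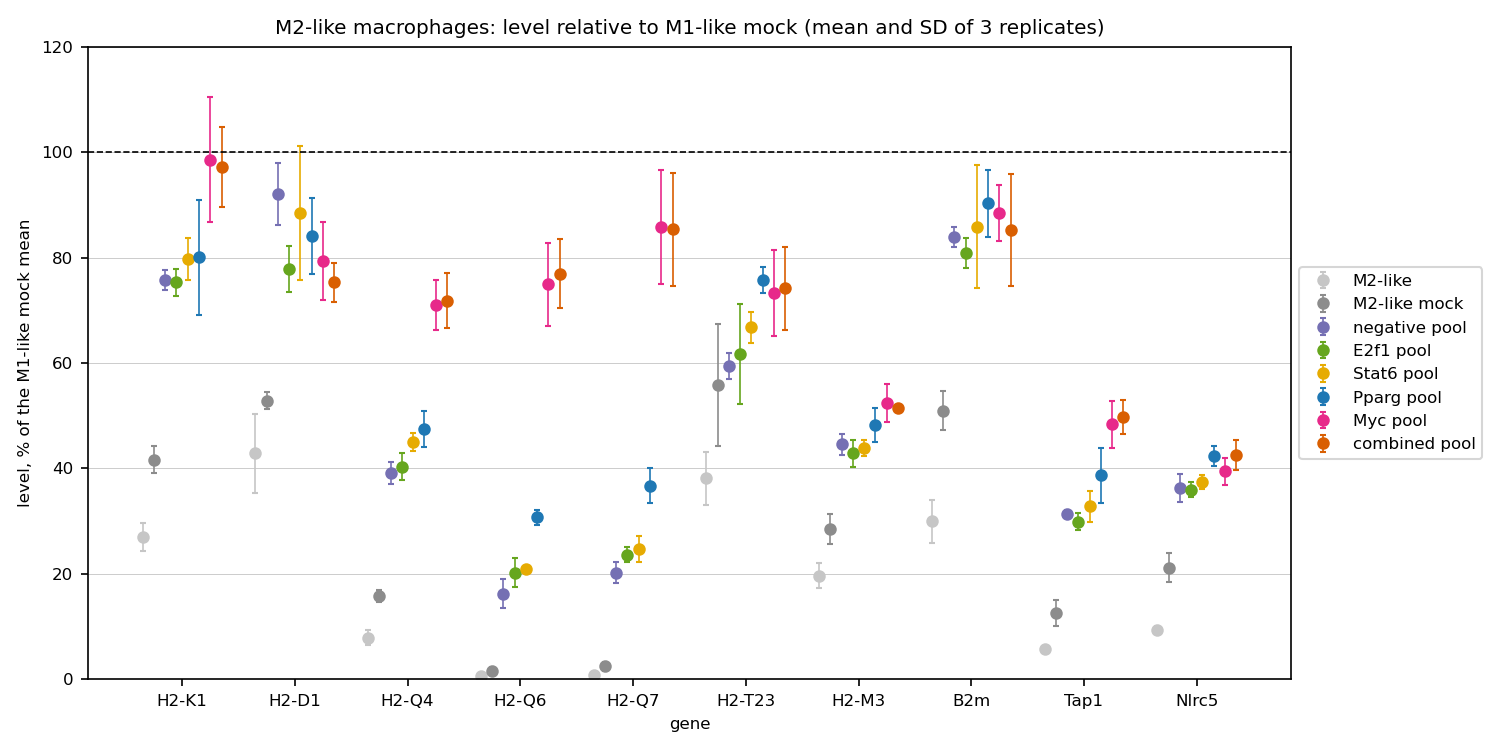
Level of each gene in M2-like groups as a percentage of the M1-like mock mean (dashed line at 100), with the mean and SD of 3 replicates. H2-Q6 and H2-Q7 cover nearly the whole scale, H2-D1 and B2m reach their upper range with the negative pool, and H2-M3, Tap1 and Nlrc5 stay near or below the middle.

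Ordered by mean level in the reprogramming experiment, the conditions followed a common course for 6 of the 10 genes, H2-K1, H2-Q4, H2-Q6, H2-Q7, H2-M3 and Tap1: untransfected M2-like and M0 cells lowest, then the mock groups of both, then the negative, E2f1, Stat6 and Pparg pools, the Myc and combined pools, and M1-like cells highest with or without mock. The steps of this course were drawn from these data and the share of all genes that follow it was not counted, so it is a description only. Neighbours in this order often overlapped. M2-like and M0 cells did not overlap in H2-M3 and Tap1, and the Myc and combined pools overlapped in every gene in which they were neighbours. The other 4 genes departed from the course among the pools. In H2-T23 and B2m the Pparg pool had the highest mean of the pools, in Nlrc5 it lay between the Myc and the combined pool, and in B2m the combined pool lay under the Stat6 pool. In H2-D1 the means with all 5 targeting pools, from 1441 CPM with the combined pool to 1692 CPM with the Stat6 pool, were under the 1762 ± 113 CPM (SD, n = 3) of the negative pool. None of these 5 differences passed by edgeR, and that of the combined pool passed by DESeq2 (adjusted p = 0.0402).

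The makeup of heavy chain RNA shifted as the genes moved by unequal amounts. As a share of the summed RPKM of the 7 heavy chain genes, H2-D1 was 68.4% ± 0.0909 (SD, n = 3) in unstimulated, 64.5% ± 1.01 in M2-like and 39.7% ± 0.505 in M1-like macrophages of the polarization experiment. In the reprogramming experiment H2-D1 was 60.9% ± 1.76 in M2-like cells, 57.0% ± 0.688 with the negative pool, 42.8% ± 2.37 with the Myc pool, 41.6% ± 1.08 with the combined pool and 43.5% ± 1.96 in M1-like mock cells. H2-Q6 went the other way, from 0.166% ± 0.0705 in M2-like and 1.998% ± 0.251 in negative pool cells to 8.47% ± 0.227 with the combined pool and 8.71% ± 0.684 in M1-like mock cells. B2m per summed heavy chain RPKM, the ratio of light to heavy chain RNA, stayed in a narrower band, at a mean of 1.62 unstimulated, 1.67 in M1-like and 2.05 in M2-like cells of the polarization experiment. It ran from 4.49 in M2-like to 5.91 in M0 mock cells in the reprogramming experiment. These shares and ratios carry the uncertainty of reads split among paralogs and were not tested.

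**Figure D5:**
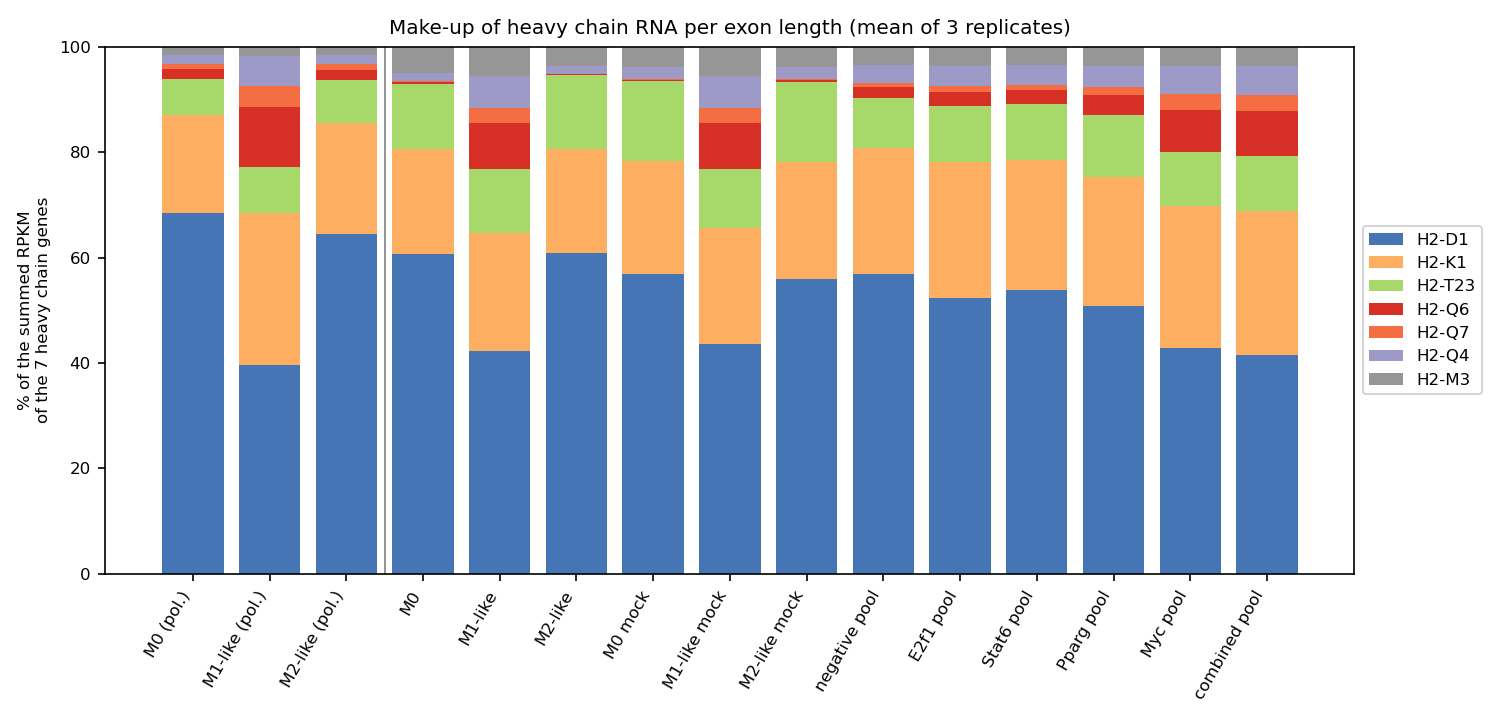
Share of each heavy chain gene in the summed RPKM of the 7 genes (stacked bars, mean of 3 replicates) in the 15 conditions. H2-D1 (blue) holds more than the others everywhere but shrinks in M1-like cells and with the Myc and combined pools, where H2-Q6 (red) widens.

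Peptide loading genes outside the set moved in both directions. Of 8 listed genes, 4 were higher and 3 lower in M1-like against M2-like macrophages of the polarization experiment, beside 34.6% and 38.1% of all genes. The second transporter subunit Tap2 (3.14), tapasin (Tapbp, 3.01), the tapasin relative Tapbpl (3.60) and the trimming peptidase Erap1 (1.29) were higher on the log2 scale. The general chaperones Calr (-0.40), Canx (-0.23) and Pdia3 (-0.47) were lower. M2-like mock cells had more than untransfected M2-like cells of Tap2 (0.40), Tapbp (0.63) and Erap1 (0.39), and the negative pool raised these and Tapbpl (0.64) over mock. These were 3 and 4 of the 8 genes, beside 1.67% and 6.67% of all genes. With the combined pool Tap2 was the only gene of the list higher than with the negative pool, by 0.35 (SE 0.08, adjusted p = 0.00167) by edgeR's quasi-likelihood test with Benjamini-Hochberg adjustment, and Canx (-0.39) and Pdia3 (-0.48) were lower. That makes 1 of 8 higher and 2 of 8 lower, beside 12.5% and 13.9% of all genes. Against M1-like mock cells Tap2 (-1.09), Tapbpl (-1.10) and Erap1 (-0.65) were lower in combined pool cells, 3 of 8 beside 25.6% of all genes, and Calr (0.59) was higher.

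The immunoproteasome subunits and the PA28 activator, which shape the peptides cut in the cytosol, were higher in 5 of 5 genes in M1-like cells, set against M2-like cells, in both experiments (34.6% and 31.3% of all genes were higher). Psmb9 led in the polarization experiment with 3.29 and Psmb10 was last with 1.56. The combined pool raised 2 of the 5 over the negative pool, beside 12.5% of all genes. Both calls were near the threshold by edgeR's quasi-likelihood test, Psmb9 with 0.34 (adjusted p = 0.0495) and Psmb10 with 0.40 (adjusted p = 0.0408). With the Myc pool Psmb10 came nearest, with 0.32 (SE 0.15, adjusted p = 0.0972), and did not pass. The combined and Myc pools did not detectably differ in Psmb9 (0.15, SE 0.13) or Psmb10 (0.08, SE 0.15). Psmb9 was lower with the combined pool than in M1-like mock cells, with -0.96 (SE 0.13, adjusted p = 2.30e-07) by edgeR's quasi-likelihood test with Benjamini-Hochberg adjustment, and in all 3 of the 5 were lower, beside 25.6% of all genes.

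Of 12 listed regulators of class I transcription, 10 were higher and 1 lower in M1-like against M2-like macrophages of the polarization experiment, beside 34.6% and 38.1% of all genes. Irf1, an interferon-induced activator, had 5.40, Stat2 4.17, the class II transactivator Ciita 4.03 and Rfx5, part of the X box complex, 3.06. Nfya, a Y box factor, was lower with -0.74. In M2-like mock cells 3 of 12 were higher than in untransfected M2-like cells, beside 1.67% of all genes, Stat2 by 1.72, Irf9 by 1.26 and Irf1 by 0.60. The negative pool raised the same 3 over mock, by 0.98, 0.46 and 0.42, while Ciita (-0.68) and Nfya (-0.24) were lower, beside 6.67% of all genes higher and 5.03% lower. With the combined pool Stat2 (0.61), Irf1 (0.41), Irf2 (0.24) and Irf9 (0.23) were higher than with the negative pool, and Ciita (-1.12) and Creb1 (-0.41) lower, which makes 4 and 2 of 12 beside 12.5% and 13.9% of all genes. Compared with M1-like mock cells, combined pool cells had less Irf1 (-3.04, SE 0.13, adjusted p = 4.64e-19) and Ciita (-3.98, SE 0.15, adjusted p = 4.39e-20) and more Irf9 (0.97, SE 0.08, adjusted p = 2.48e-11) and Stat2 (0.87, SE 0.15, adjusted p = 1.70e-05) by edgeR's quasi-likelihood test with Benjamini-Hochberg adjustment.

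Of 27 other class I and class I-like genes, 15 were tested in the polarization experiment, where 11 were higher and 3 lower in M1-like against M2-like macrophages, beside 34.6% and 38.1% of all genes. The extremes were H2-M2, a non-classical heavy chain gene, with 5.99 and Hfe, a regulator of iron uptake, with -4.78 on the log2 scale. In the reprogramming experiment 11 were tested, and 7 were higher and 2 lower in the untransfected M1-like cells, beside 31.3% and 30.2%, from 5.45 for H2-Q5 to -1.78 for Hfe. With the combined pool H2-M2 changed most of this list. It was at a mean of 125 CPM with the combined pool and 5.46 CPM with the negative pool, a log2 fold change of 4.50 (SE 0.36, adjusted p = 5.46e-11) by edgeR's quasi-likelihood test with Benjamini-Hochberg adjustment, and at 107 CPM with the Myc pool. It was higher with the combined pool than in M1-like mock cells, which had 43.4 CPM (1.53, SE 0.29, adjusted p = 4.48e-05). H2-Q5 and H2-T22 rose with the negative pool over mock by 1.82 and 1.20, and with the combined over the negative pool by 1.08 and 0.35. In all, 6 of the 11 were higher and 2 lower with the combined than with the negative pool, beside 12.5% and 13.9% of all genes.

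Across the 12 condition means of the reprogramming experiment, the 10 genes followed each other closely, with Pearson's r of log2 levels from 0.873 for B2m and H2-M3 to 0.9997 for H2-Q6 and H2-Q7. These means share control groups and libraries, H2-Q6 and H2-Q7 may share reads, and r is given as a description. Among 10134 genes, those whose means followed Nlrc5 most closely were the interferon-inducible GTPases Tgtp2 (0.993), Igtp (0.993) and Gbp3 (0.992), followed by Creb5 (0.989) and Gm4951 (0.989). Those nearest to H2-K1 were Zfas1 (0.988), Setdb2 (0.987), Trim12a (0.981), Enpp4 (0.978) and Mlkl (0.978).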

How the data were processed

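RNA was sequenced from 54 libraries of 15 conditions. The authors trimmed reads with Trimmomatic, aligned them to mm10 with TopHat2 and counted them per gene with featureCounts (per the labels and the study's methods). Tool versions, the annotation, strandedness and the treatment of multi-mapped reads are not given in the sources used here. The deposited files hold raw counts of 39179 Ensembl genes, of which 37693 had a symbol in GENCODE M21.

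The 2 technical runs of each mouse and condition differed by close to counting noise (chi-square per gene 1.07 to 1.10, against 5.86 to 96.6 between mice) and were summed to 1 sample. Each experiment was fitted once with all its groups in edgeR 4.0.16 (R 4.3.3): filterByExpr (minimum count 10, minimum total 15), TMM scaling, glmQLFit and the two-sided quasi-likelihood test, with Benjamini-Hochberg adjustment over the 16110 and 14172 genes tested, and calls at an adjusted p under 0.05. All 10 genes passed the filter in both. The script was tested on simulated data. The study's methods name DESeq2, run here (1.42.0) as an alternative. Other alternatives were a stricter and no filter, RLE scaling, fits of the compared groups only, unsummed runs, M2-like mock as the control, H2-Q6 and H2-Q7 summed, a replicate block, and leaving out each sample. In the polarization experiment equal numbers mark the same mouse, and same-number samples deviated from their group means with a median r of 0.250 over 9 pairs (-0.135 over 18 pairs of different mice).

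The 10 genes and the pathway and marker lists were chosen with earlier results of these data known. The 10 genes are named in every comparison, and other genes come from the lists, given as counts with examples, with the 5 genes nearest in pattern for Nlrc5 and H2-K1. RPKM used the exon length of GENCODE M21, and promoter sequences are those of RefSeq. Python 3.11.15, pandas 2.3.3, NumPy 2.4.6 and matplotlib 3.10.9 were used. One further gene is not reported here.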

Additional observations from a re-analysis of the deposited data

Results flagged for a closer look

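The difference between M1-like and M2-like macrophages changed with mock treatment in 9 of the 10 genes, by a test of the difference itself (the interaction in edgeR's quasi-likelihood test with Benjamini-Hochberg adjustment). On the log2 scale, mock minus untransfected, it was -0.64 for H2-K1, -0.97 for H2-Q4, -1.53 for H2-Q6, -1.58 for H2-Q7 and -0.63 for H2-T23. It was -0.53 for H2-M3, -0.83 for B2m, -1.22 for Tap1 and -1.10 for Nlrc5, with adjusted p from 8.05e-06 to 0.0439. H2-D1 had -0.25 (SE 0.16, adjusted p = 0.799) and did not pass.

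On the log2 scale Tap1 was 4.21 higher in M1-like cells, against M2-like cells, without transfection and 2.99 higher in mock cells, and H2-K1 1.91 and 1.26. H2-Q6 went from 7.47 to 5.94, and H2-T23 from 1.47 to 0.84. Nlrc5 was at 240.4, 241 and 227 CPM in M1-like mock and 232, 234 and 213 CPM in M1-like cells, with overlap, while M2-like mock cells had 42.4, 53.3 and 54.0 CPM and M2-like cells 20.8, 24.2 and 21.6 CPM. H2-Q4, B2m, Tap1 and Nlrc5 kept the call without any 1 of the 12 samples. H2-Q7 lost it without replicate 2 or 3 of M2-like or replicate 2 of M2-like mock cells. The other 4 called genes lost the call in most of these runs. H2-K1 lost it without any 1 sample other than replicate 2 of M1-like, replicate 3 of M1-like mock, replicate 3 of M2-like or replicate 1 of M2-like mock cells. H2-M3 lost it without any 1 sample other than replicate 1 of M1-like, replicate 2 or 3 of M1-like mock, replicate 3 of M2-like or replicate 1 of M2-like mock cells. H2-Q6 lost it without any 1 sample other than replicate 1 of M1-like, replicate 2 of M1-like mock or replicate 3 of M2-like mock cells, and H2-T23 without any 1 sample other than replicate 1 of M1-like, replicate 3 of M2-like or replicate 1 of M2-like mock cells.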

How the results depend on the processing

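Of the counts of called genes over the comparisons, those of the M1-like groups against M0 and M2-like groups, of the negative pool against mock and of the combined pool against the Myc pool or M1-like mock cells stayed within 1.5 times under the alternatives. Between M2-like and M0 cells of the polarization experiment, where 2 genes were called, a fit without the filter called 1 and one with technical runs kept apart 5. Without the filter, 2 genes were called between M2-like mock and M0 mock cells (1 in the report), 4 for the Pparg pool (2) and 1 for the Stat6 pool (0). With only the compared groups in the fit, 2 genes were called between M2-like and M0 cells of the reprogramming experiment (4), 0 between M2-like mock and M0 mock cells (1) and 5 for the Pparg pool (2).

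With M2-like mock cells in place of the negative pool, the combined pool had 10 called genes (6), E2f1 9 (0), Pparg 10 (2) and Stat6 9 (0). This control also turned signs. H2-D1 went to 0.51 for the combined pool, 0.59 for Myc, 0.67 for Pparg and 0.74 for Stat6. For E2f1 H2-K1 went to 0.85, H2-D1 to 0.56, H2-M3 to 0.59, B2m to 0.67, Tap1 to 1.25 and Nlrc5 to 0.77, and for Stat6 H2-M3 went to 0.63. By construction these values add the step from mock to negative pool.

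Leaving out 1 replicate gave 0 to 3 called genes for M2-like against M0 in the polarization experiment and 1 to 4 in the reprogramming experiment, 0 to 2 for M2-like mock against M0 mock, 6 to 8 for M0 mock against M0, 7 to 9 for M2-like mock against M2-like, 4 to 6 for the combined pool, 4 to 7 for the Myc pool and 4 to 8 for the interaction. The interaction counts were 4 without replicate 2 of M2-like or of M2-like mock cells and 5 without replicate 3 of M1-like, replicate 1 of M1-like mock or replicate 1 of M2-like cells.

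DESeq2, RLE scaling, the stricter filter and the replicate block moved no count by over 1.5 times. In the reprogramming experiment the labels do not say whether samples with 1 number share an origin. Deviations from the group means correlated with a median r of 0.183 between same-number samples, over 0.1 in 131 of 198 pairs, and of -0.0829 between different numbers, over 0.1 in 23 of 396 pairs, and 34 of 36 samples correlated best with their own number, which is a hint from the data and not from the design. The replicate block gained 9 calls there and lost 0. These were H2-D1 (lower) and H2-M3 with the combined against the negative pool, H2-T23 with the Pparg pool, H2-T23 with the combined against the E2f1 pool, H2-K1 against the Pparg pool, H2-K1 and H2-M3 against the Stat6 pool, and H2-Q6 and B2m, both lower, against M1-like mock cells. The planned sum of H2-Q6 to H2-Q9 held H2-Q6 and H2-Q7 and gained 1 call. No counted gene had the symbol H2-Q8 or H2-Q9 in GENCODE M21. Depth limits H2-Q6 and H2-Q7 in untransfected M2-like cells, where each library held 16 to 37 reads. The cause of the changes with the filter and the fitted groups was not tested.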
